A study of Homo sapiens with 12 samples.

Results

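The genes described here are 57 genes of the WNT pathway out of 63241 genes in the count table, taken by name and not by any difference between groups. The rule took the WNT, frizzled (FZD), SFRP, DKK, RSPO, AXIN, TCF7, NKD and DVL families, LRP5, LRP6, LGR4, LGR5 and LGR6, and the single genes WLS, LEF1, CTNNB1, APC, SP5, PORCN, NOTUM, RNF43 and ZNRF3. It kept those with at least 10 counts summed over the 12 libraries. Of 67 matching gene names, 10 fell under that minimum. DKK4, DKKL1P1, SFRP4 and WNT8B had no count at all, and RSPO3 had 9 counts, DKK1 had 7, RSPO4 had 4, WNT16 had 2, and LGR5 and RSPO2 had 1 each. The 57 members were 17 WNT ligands, 2 genes of ligand acylation and export, 10 frizzled receptors, 2 LRP co-receptors, 7 secreted antagonists, 5 genes of the R-spondin arm, 9 cytoplasmic signalling proteins and 5 nuclear factors.

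Total RNA of 2 human testicular germ cell tumour lines was sequenced from the 3′ ends of transcripts, and the reads were estimated as counts per gene. TCam-2 is a seminoma line, whose tumour type resembles primordial germ cells, and 2102 EP is an embryonal carcinoma line, whose tumour type resembles pluripotent stem cells. I-BRD9 is an inhibitor of the bromodomain of BRD9, a subunit of a BAF-type chromatin remodelling complex. The groups were TCam-2 given 15 µM I-BRD9, TCam-2 given DMSO, 2102 EP given 15 µM I-BRD9 and 2102 EP given DMSO, each for 24 h and each with 3 libraries. All cells were labelled wild type, and DMSO was the solvent control. TCam-2 was grown in RPMI and 2102 EP in DMEM, both with fetal bovine serum, penicillin, streptomycin and L-glutamine, and each tumour type was 1 line, so that line, tumour type and medium cannot be told apart. The replicates are called biological, but the labels do not say that they were separate cultures, so p-values measure the spread between these libraries.

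Library totals ranged from 7290335 to 10053366 estimated counts, and 3 counts corresponded to 0.298 to 0.412 CPM in a library. CPM is the counts-per-million scale, here with library sizes adjusted by TMM, the trimmed mean of ratios between libraries. SOX2, a pluripotency factor of embryonal carcinoma, averaged 6.08 ± 1.85 CPM in TCam-2 with I-BRD9 and 17.1 ± 2.28 with DMSO, and 257 ± 4.74 and 468 ± 21.1 in 2102 EP (SD, n = 3 each). The seminoma markers SOX17 and PRAME were at 0 in 2102 EP with I-BRD9 and had 2 counts each with DMSO. Both marker lists were at a lower summed level with I-BRD9, though not each member was. KIT, a seminoma marker, averaged 49.4 ± 3.46 CPM with I-BRD9 and 26.5 ± 0.366 with DMSO in TCam-2. CXCR4 averaged 3.9 ± 0.369 and 129 ± 3.17 CPM in TCam-2 and 4.5 ± 1.15 and 1.26 ± 0.553 in 2102 EP. The 8 embryonal carcinoma markers summed to 628 to 644 CPM with I-BRD9 and 1730 to 1820 with DMSO in TCam-2, and to 1530 to 1610 and 3380 to 3450 in 2102 EP. The 10 seminoma markers, which share POU5F1 and NANOG with that list, summed to 1580 to 1730 and 2860 to 3290 CPM in TCam-2, and to 332 to 367 and 690 to 823 in 2102 EP. Of 7 fibroblast markers, LUM, DCN and FAP were at 0 in 2102 EP, and the list summed to 87.9 to 135 CPM with I-BRD9 and 168 to 179 with DMSO in TCam-2, mostly from COL1A2. CD3E and HBB, markers of blood cells, were at 0 in every group. These lists moved with the treatment, and their part in the results below was not tested.

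WNT proteins are secreted, lipid-modified ligands. PORCN attaches the lipid and WLS carries the ligand to the cell surface, where it binds a frizzled receptor together with LRP5 or LRP6. Signalling through dishevelled (DVL) stops the complex of APC and AXIN from marking β-catenin (CTNNB1) for destruction, and β-catenin then joins TCF/LEF factors at target genes. Several of these targets, among them AXIN2, NKD1, RNF43, ZNRF3, NOTUM, SP5, LEF1 and TCF7, are widely used as readouts of the pathway, and most of them feed back on it. WNT3 and WNT3A are known as ligands that drive this arm, while WNT5A and WNT5B are known mainly for signalling that does not use β-catenin.

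TCF/LEF factors recognise short sequences beginning with CTTTG, and upstream sequences of the nuclear genes SP5, TCF7, TCF7L2 and LEF1 are shown. The sequences are RefSeq promoters on GRCh38.p14, limited to the 250 bases before the listed transcript start and written 5′ to 3′ on the strand of the gene. Capitals mark the motif CTTTGAA, the motif CTTTGAT, the motif CTTTGTA or the motif CTTTGTT on either strand. SOX factors recognise similar letters, so a match to any of these motifs does not tell the families apart. The sequence of SP5 lies at chr2:170715087-170715336 on the plus strand and held 3 matches.
SP5: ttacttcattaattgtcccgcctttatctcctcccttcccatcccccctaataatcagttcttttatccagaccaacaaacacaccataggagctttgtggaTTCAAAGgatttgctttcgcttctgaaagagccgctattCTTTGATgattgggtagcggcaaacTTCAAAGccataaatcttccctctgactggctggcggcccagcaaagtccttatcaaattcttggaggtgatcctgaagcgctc
The sequence of the second TCF7 start lies at chr5:134123368-134123617 on the plus strand and held 1 match.
TCF7: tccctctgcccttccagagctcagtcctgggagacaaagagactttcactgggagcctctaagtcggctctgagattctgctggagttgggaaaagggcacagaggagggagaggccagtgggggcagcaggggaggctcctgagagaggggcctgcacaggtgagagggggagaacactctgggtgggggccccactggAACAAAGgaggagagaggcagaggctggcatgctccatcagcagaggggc
The sequence of an alternative start of TCF7L2 lies at chr10:113126383-113126632 on the plus strand and held 1 match.
TCF7L2: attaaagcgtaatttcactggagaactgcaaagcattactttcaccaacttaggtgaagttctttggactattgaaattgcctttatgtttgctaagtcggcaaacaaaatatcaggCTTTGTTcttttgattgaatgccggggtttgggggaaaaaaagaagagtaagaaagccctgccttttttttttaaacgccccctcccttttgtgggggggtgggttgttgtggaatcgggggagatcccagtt
The sequence of LEF1 lies at chr4:108166302-108166551 on the minus strand and held none of these motifs. It falls within the annotated LEF1 gene (chr4:108047545-108168956).
LEF1: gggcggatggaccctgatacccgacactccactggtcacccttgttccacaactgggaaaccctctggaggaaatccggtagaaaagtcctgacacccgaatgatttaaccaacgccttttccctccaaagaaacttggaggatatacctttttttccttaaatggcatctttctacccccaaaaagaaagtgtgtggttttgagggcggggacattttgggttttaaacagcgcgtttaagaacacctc
Over all 35116 promoters of the table, 4199 (12.0%) held at least 1 match. Of the 41 members with a promoter in the table, 3 did (7.32%), namely SP5, TCF7 and TCF7L2. The sequences shown are thus those of every member with a match, with LEF1 as an example without one. The other listed starts of TCF7 and TCF7L2 held no match. TCF7L1, a nuclear factor also described below, held none either and is not shown. AXIN2 and NKD1 had no listed promoter. A match describes letters only.

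Of the 57 members, 43 passed the filter on low counts and were tested with edgeR's quasi-likelihood test over 15614 genes, with Benjamini-Hochberg adjustment over all of them and a call at an adjusted p under 0.05. A member could pass through the group in which it was high, so the counts over the 43 describe them and do not support a difference. With I-BRD9, 9 of the 43 were called higher and 5 lower in TCam-2 (32.6%), where 31.8% of all genes tested were called, 15.3% higher and 16.5% lower. In 2102 EP 12 were called higher and 9 lower (48.8%), where 36.8% of all genes tested were called, 18.2% higher and 18.6% lower. The median log2 fold change was 0.04 over the 42 members with counts in TCam-2 and 0.02 over the 42 in 2102 EP, against 0.01 and 0.00 over all genes tested in those lines. The median absolute log2 fold change was 0.48 in TCam-2 and 0.58 in 2102 EP, against 0.34 and 0.39 over all genes tested. In bulk libraries of this kind, fewer cells with a transcript and less transcript per cell cannot be told apart.

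**Figure D1:**
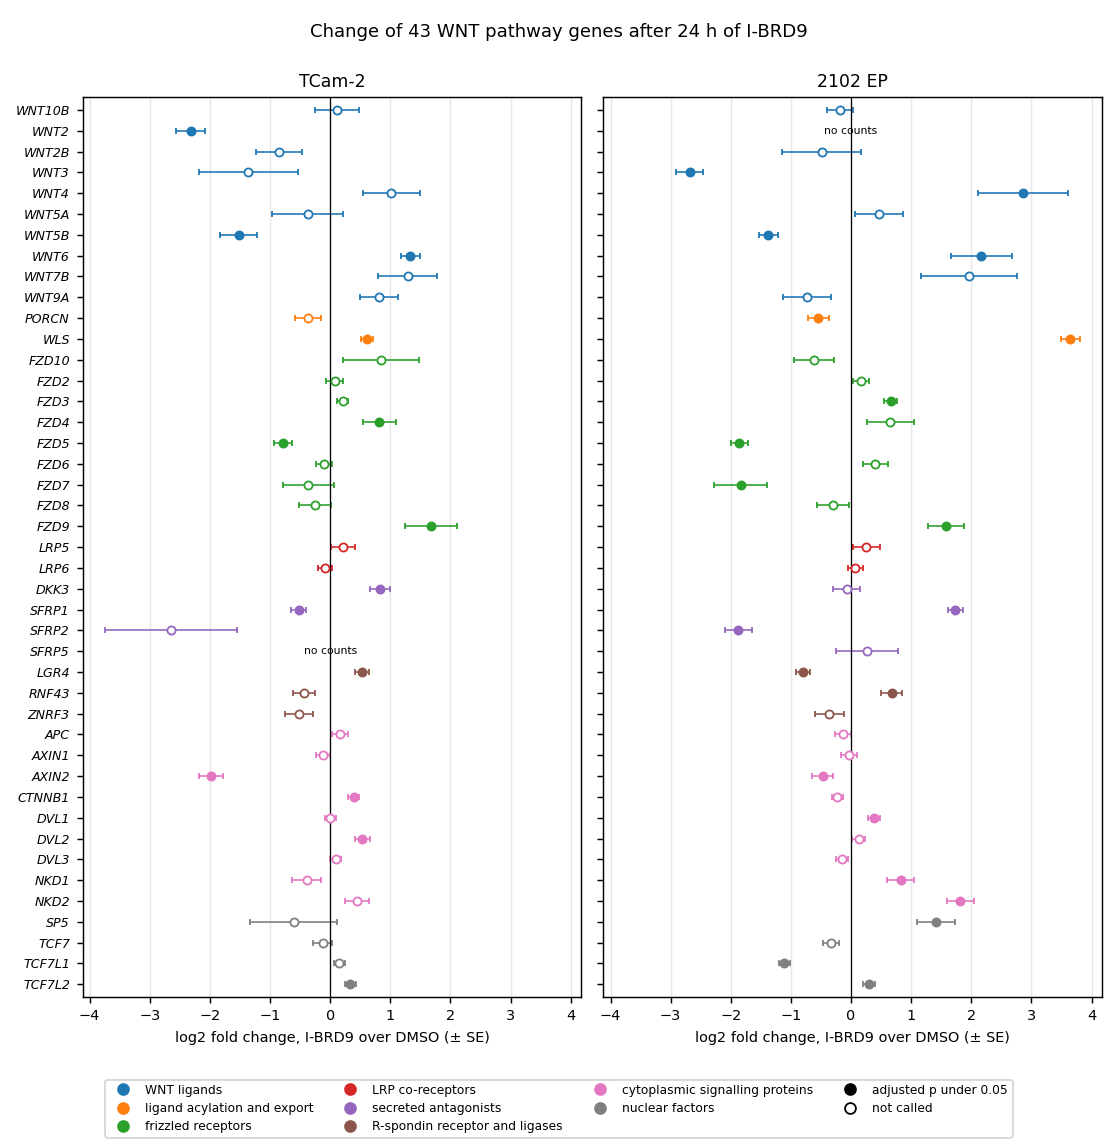
Log2 fold change of each of the 43 members tested, I-BRD9 over DMSO, in TCam-2 (left) and 2102 EP (right), with bars of 1 standard error; colour gives the role, filled points were called at an adjusted p under 0.05 and "no counts" marks a member without counts in that line. The filled points lie on both sides of 0 in every larger role, with 9 higher and 5 lower in TCam-2 and 12 higher and 9 lower in 2102 EP.

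The same direction in both lines was called for 7 members. FZD9, TCF7L2, WLS and WNT6 rose in both lines, and AXIN2, FZD5 and WNT5B fell in both. Of these, the AXIN2 call in 2102 EP was lost in 12 of 21 alternatives, and that of TCF7L2 was lost on leaving out single libraries of each line, as given below. LGR4 and SFRP1 were called in opposite directions. A further 12 members were called in 2102 EP alone and 5 in TCam-2 alone, and 17 in neither. Of all 15614 genes tested, 2849 were called in 2102 EP alone, 2069 in TCam-2 alone, 2890 in both and 7806 in neither. Among all genes called in both lines, 90.6% had the same direction, and among the 9 members 77.8% did. The lines share no library in these comparisons.

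The WNT ligand genes divided between rises and falls. WNT6, known for roles in epithelial and kidney development, rose in both lines, WNT5B fell in both, WNT2 fell in TCam-2, and WNT3 fell and WNT4 rose in 2102 EP. In total 1 of 10 tested ligands was called higher and 2 lower in TCam-2, and 2 higher and 2 lower in 2102 EP. These shares of 30.0% in TCam-2 and 40.0% in 2102 EP lie near the 31.8% and 36.8% of all genes tested.

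WNT3 had 3.41, 7.31 and 5.58 CPM in 2102 EP with I-BRD9, against 39.4, 36.5 and 30.6 CPM with DMSO. Every I-BRD9 library of that line was far below every DMSO library, and the log2 fold change was -2.68 ± 0.22 (± is the standard error throughout; edgeR adjusted p = 2.56e-09). In TCam-2 the gene was near the limit of detection, with 3 counts over the I-BRD9 group and 8 over the DMSO group, a DMSO over I-BRD9 ratio of 2.77 (95% counting interval 0.665 to 16.2). The WNT3 gene (chr17:46762506-46833154, minus strand) has WNT9B as its neighbour at a distance of 46 bases. WNT9B was too low to be tested, with 6 counts with I-BRD9 and 16 with DMSO in 2102 EP and none in TCam-2.

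WNT5B (chr12:1529891-1647243, plus strand) had 0.791, 0.721 and 0.58 CPM with I-BRD9 in TCam-2, against 1.53, 1.91 and 2.69 CPM with DMSO. In 2102 EP WNT5B had 15.3, 13.7 and 13.5 CPM with I-BRD9, against 33.6, 36.4 and 40 CPM with DMSO. The groups did not overlap in either line, and the log2 fold changes were -1.52 ± 0.31 in TCam-2 (edgeR adjusted p = 0.000541) and -1.37 ± 0.16 in 2102 EP (edgeR adjusted p = 3.64e-07). Its close relative WNT5A was not called, with -0.38 ± 0.58 in TCam-2 and 0.47 ± 0.40 in 2102 EP on the log2 fold change scale.

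WNT6 (chr2:218859821-218874233, plus strand) moved the other way. In TCam-2 WNT6 had 55.9, 60.5 and 61.4 CPM with I-BRD9, against 26.3, 21.7 and 22.5 CPM with DMSO, a log2 fold change of 1.33 ± 0.16 (edgeR adjusted p = 1.13e-06). In 2102 EP it was low, with 2.18, 0.601 and 1.34 CPM with I-BRD9, against 0.114, 0.236 and 0.511 CPM with DMSO, and the log2 fold change was 2.17 ± 0.51 (edgeR adjusted p = 0.00188). The I-BRD9 libraries were above the DMSO libraries in both lines, and the 2102 EP value rests on 34 counts with I-BRD9 and 7 with DMSO. Leaving out DMSO replicate 3 of 2102 EP gave 2.81 on the log2 scale. WNT10A, the neighbour of WNT6 on chromosome 2 at a distance of 6129 bases, was too low to be tested, with 22 counts with I-BRD9 and 11 with DMSO in TCam-2. In 2102 EP WNT10A had 18 counts with I-BRD9 and 3 with DMSO, a ratio of 5.72 (95% counting interval 1.67 to 30.3).

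WNT2 (chr7:117275451-117323289, minus strand) was detected in TCam-2 alone. It had 3.07, 4.32 and 4.29 CPM with I-BRD9, against 19.9, 21.8 and 16.3 CPM with DMSO, without overlap, and the log2 fold change was -2.32 ± 0.24 (edgeR adjusted p = 4.98e-07). In 2102 EP it had no count in any of the 6 libraries.

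WNT4, known for its role in ovary and kidney development, had 25 counts over the I-BRD9 group and 3 over the DMSO group of 2102 EP. The ratio was 7.94 (95% counting interval 2.42 to 41.1), with an edgeR adjusted p of 0.00421. In TCam-2 WNT4 had 2.47, 2.28 and 2.09 CPM with I-BRD9, against 1.65, 0.743 and 0.98 CPM with DMSO, and the log2 fold change of 1.02 ± 0.48 was not called (edgeR adjusted p = 0.109).

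WNT9A was not called in either line. It had 29.4, 36.3 and 56.5 CPM with I-BRD9 and 24.1, 16.8 and 28.5 CPM with DMSO in TCam-2, a log2 fold change of 0.82 ± 0.31 (edgeR adjusted p = 0.0738). In 2102 EP WNT9A had 3, 5.01 and 6.25 CPM with I-BRD9 and 6.64, 11.3 and 6.01 CPM with DMSO, a log2 fold change of -0.73 ± 0.40 (edgeR adjusted p = 0.192). The groups overlapped in 2102 EP. The outcome depends on the setting in both lines. In 2102 EP the replicate block (adjusted p = 0.0467) and the library-code block (adjusted p = 0.0237) called it lower, with -0.74 in both fits, and adjusted p-values of 0.00443 to 0.0465 were obtained for TCam-2 in 6 of 21 alternatives. The difference between the lines was 1.55 ± 0.51 (edgeR adjusted p = 0.0783), with adjusted p-values of 0.00376 to 0.0448 in 5 alternatives. WNT7B had a log2 fold change of 1.29 ± 0.49 in TCam-2 (edgeR adjusted p = 0.0504) and 1.96 ± 0.80 in 2102 EP (edgeR adjusted p = 0.0601). It was called in TCam-2 in 8 of 21 alternatives, with adjusted p-values down to 0.00958. In 2102 EP WNT7B was low, with 17 counts with I-BRD9 and 4 with DMSO, and with 0.114, 0.354 and 0 CPM in the DMSO libraries. It was called there without DMSO replicate 2, which held most of the DMSO counts, with a log2 fold change of 3.18 (adjusted p = 0.0277). It was also called without I-BRD9 replicate 3, with 2.38 (adjusted p = 0.0225). WNT10B and WNT2B were not called, with values of 0.11 ± 0.36 and -0.85 ± 0.38 in TCam-2 and -0.18 ± 0.21 and -0.49 ± 0.66 in 2102 EP on the log2 fold change scale. The TCam-2 groups of WNT2B did not overlap. WNT2B was called lower there by limma voom (adjusted p = 0.0284) and with the 2 groups compared alone (edgeR adjusted p = 0.0192). The other untested ligands were WNT1, WNT3A, WNT7A, WNT8A and WNT11, none above 36 counts in any group.

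**Figure D2:**
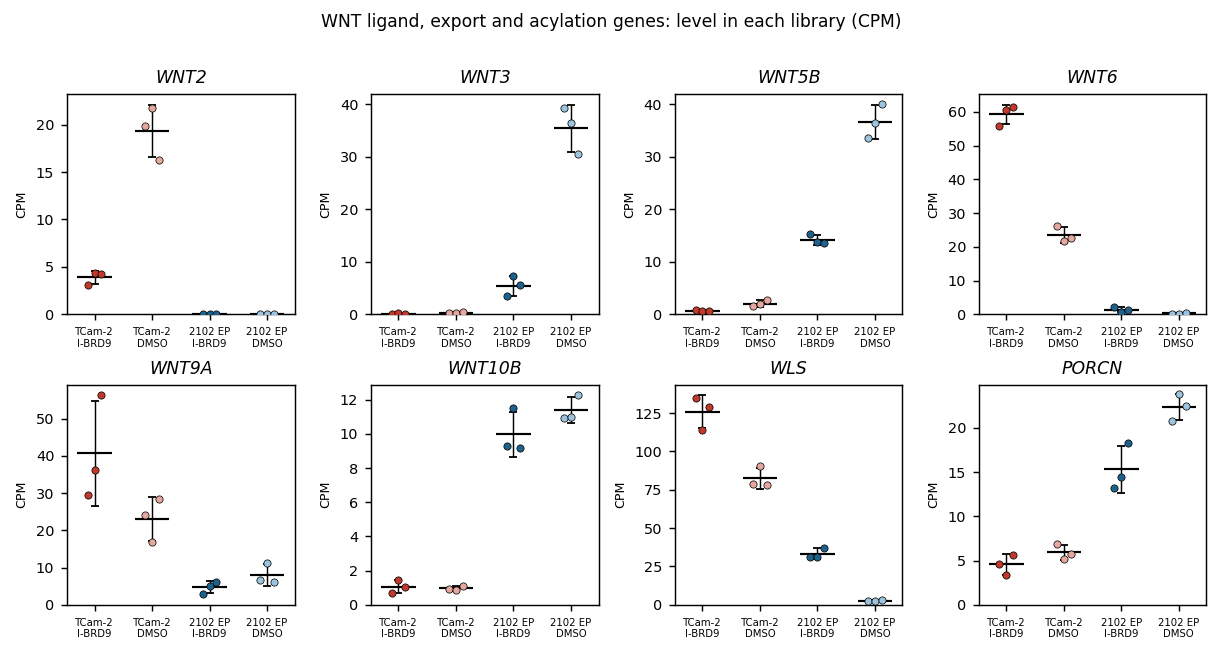
Level (CPM) of 8 ligand, acylation and export genes in each of the 12 libraries; points are libraries, horizontal lines means and bars 1 SD of 3 libraries, in the order TCam-2 I-BRD9, TCam-2 DMSO, 2102 EP I-BRD9 and 2102 EP DMSO. WNT3 and WNT5B sit highest in 2102 EP with DMSO, WNT2 and WNT6 are transcripts mainly of TCam-2, and WLS in 2102 EP stands at 31.1 to 37.3 CPM with I-BRD9 against 2.24 to 2.94 CPM with DMSO.

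Among the 43 tested members, taking both lines together, the I-BRD9 fold change furthest from 0 was that of WLS in 2102 EP. WLS (chr1:68098473-68233120, minus strand) is the carrier that nearly all WNT ligands need for secretion. WLS had 135, 114 and 129 CPM in TCam-2 with I-BRD9, against 79, 90.4 and 77.9 CPM with DMSO. In 2102 EP WLS had 31.1, 31.4 and 37.3 CPM with I-BRD9, against 2.75, 2.24 and 2.94 CPM with DMSO. The groups were apart in both lines, and with I-BRD9 the 2102 EP libraries still lay below the DMSO libraries of TCam-2. The log2 fold changes were 0.61 ± 0.10 in TCam-2 (edgeR adjusted p = 4.07e-05) and 3.65 ± 0.15 in 2102 EP (edgeR adjusted p = 3.94e-14). In 6 libraries part of the WLS count was shared with another gene, while GNG12-AS1, which overlaps its exons on the other strand, had 2 counts in 2102 EP with I-BRD9 and none in the other groups.

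PORCN, the acyltransferase, had 13.2, 14.4 and 18.3 CPM with I-BRD9 and 20.8, 23.8 and 22.5 CPM with DMSO in 2102 EP. It fell there, with a log2 fold change of -0.54 ± 0.18 (edgeR adjusted p = 0.0178), without overlap of the groups. Leaving out DMSO replicate 2, I-BRD9 replicate 1 or I-BRD9 replicate 2 of that line ended the call, with adjusted p-values of 0.0738, 0.0807 and 0.0714. In TCam-2 its log2 fold change was -0.37 ± 0.21 (edgeR adjusted p = 0.199). In 2102 EP with I-BRD9 the export gene was thus higher and the acylation gene lower than with DMSO.

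Of 9 frizzled receptor genes tested, 2 were called higher and 1 lower in TCam-2, and 2 higher and 2 lower in 2102 EP. That is 33.3% in TCam-2 and 44.4% in 2102 EP, beside 31.8% and 36.8% of all genes tested. FZD9 rose and FZD5 fell in both lines, FZD4 rose in TCam-2, and FZD3 rose and FZD7 fell in 2102 EP. FZD1 was too low to be tested.

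FZD5 (chr2:207762586-207769563, minus strand), a receptor known for signalling through β-catenin, had 12.9, 8.53 and 9.86 CPM with I-BRD9 and 16.2, 20.2 and 17.8 CPM with DMSO in TCam-2. In 2102 EP FZD5 had 15.7, 14.6 and 14.9 CPM with I-BRD9 and 50.8, 58 and 55 CPM with DMSO. The I-BRD9 libraries were below the DMSO libraries in both lines and the gap was wider in 2102 EP, where the level with I-BRD9 came near that of TCam-2 with DMSO. The log2 fold changes were -0.78 ± 0.15 in TCam-2 (edgeR adjusted p = 0.000265) and -1.86 ± 0.14 in 2102 EP (edgeR adjusted p = 4.84e-10).

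FZD7, a receptor known to be abundant in pluripotent cells, had 18.1, 8.41 and 9.86 CPM with I-BRD9 and 23.7, 12.4 and 11 CPM with DMSO in TCam-2, with overlap of the groups. In 2102 EP FZD7 had 5.59, 5.91 and 10.3 CPM with I-BRD9 and 36.4, 20.6 and 21.1 CPM with DMSO. DMSO replicate 1 stood above the other DMSO libraries in both lines, and the spread of this gene was wide. The log2 fold changes were -0.36 ± 0.43 in TCam-2 (edgeR adjusted p = 0.579) and -1.84 ± 0.44 in 2102 EP (edgeR adjusted p = 0.00978). Part of its count was shared with another gene in 3 libraries.

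FZD9 had 1.88, 1.2 and 1.39 CPM with I-BRD9 and 0.236, 0.531 and 0.612 CPM with DMSO in TCam-2. In 2102 EP FZD9 had 6.41, 8.01 and 8.81 CPM with I-BRD9 and 2.86, 2.48 and 2.43 CPM with DMSO. No I-BRD9 library overlapped a DMSO library of its line, and the log2 fold changes of 1.68 ± 0.43 in TCam-2 (edgeR adjusted p = 0.00423) and 1.58 ± 0.30 in 2102 EP (edgeR adjusted p = 0.00022) had a difference of 0.10 ± 0.43 (edgeR adjusted p = 0.926). FZD3, known for planar polarity and axon guidance, had 67.1, 67.8 and 68.4 CPM with I-BRD9 and 57.2, 60.4 and 58.3 CPM with DMSO in TCam-2, and the log2 fold change of 0.21 ± 0.09 was not called (edgeR adjusted p = 0.0889). In 2102 EP FZD3 had 25.1, 21.8 and 21.6 CPM with I-BRD9 and 14.9, 13.8 and 14.6 CPM with DMSO, a log2 fold change of 0.66 ± 0.11 (edgeR adjusted p = 4.91e-05).

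FZD4 rose in TCam-2 with 8.21, 6.73 and 10.4 CPM with I-BRD9 and 5.31, 4.99 and 4.04 CPM with DMSO, a log2 fold change of 0.82 ± 0.28 (edgeR adjusted p = 0.0286). Leaving out DMSO replicate 2 or 3 or I-BRD9 replicate 1 or 3 of TCam-2 ended this call, with adjusted p-values of 0.0668, 0.111, 0.0669 and 0.154. Its exons overlap those of PRSS23 on the other strand, which had 2826 counts with I-BRD9 and 2075 with DMSO in TCam-2, and the FZD4 count is uncertain because it is not stated whether strand was used. FZD2, FZD6, FZD8 and FZD10 were not called in either line, with log2 fold changes of 0.07 ± 0.14, -0.10 ± 0.13, -0.25 ± 0.27 and 0.84 ± 0.63 in TCam-2. In 2102 EP these were 0.16 ± 0.13, 0.41 ± 0.20, -0.30 ± 0.27 and -0.62 ± 0.33.

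The co-receptor genes LRP5 and LRP6 were not called in either line. LRP6 had 35.1, 35.8 and 32.9 CPM with I-BRD9 and 35.2, 39.5 and 35.1 CPM with DMSO in TCam-2, and 29.7, 25.8 and 33.8 CPM with I-BRD9 and 25.6, 28.6 and 30.7 CPM with DMSO in 2102 EP. The groups overlapped in both lines, and the log2 fold changes were -0.08 ± 0.12 and 0.07 ± 0.12 in TCam-2 and 2102 EP for LRP6 and 0.21 ± 0.20 and 0.26 ± 0.23 for LRP5.

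**Figure D3:**
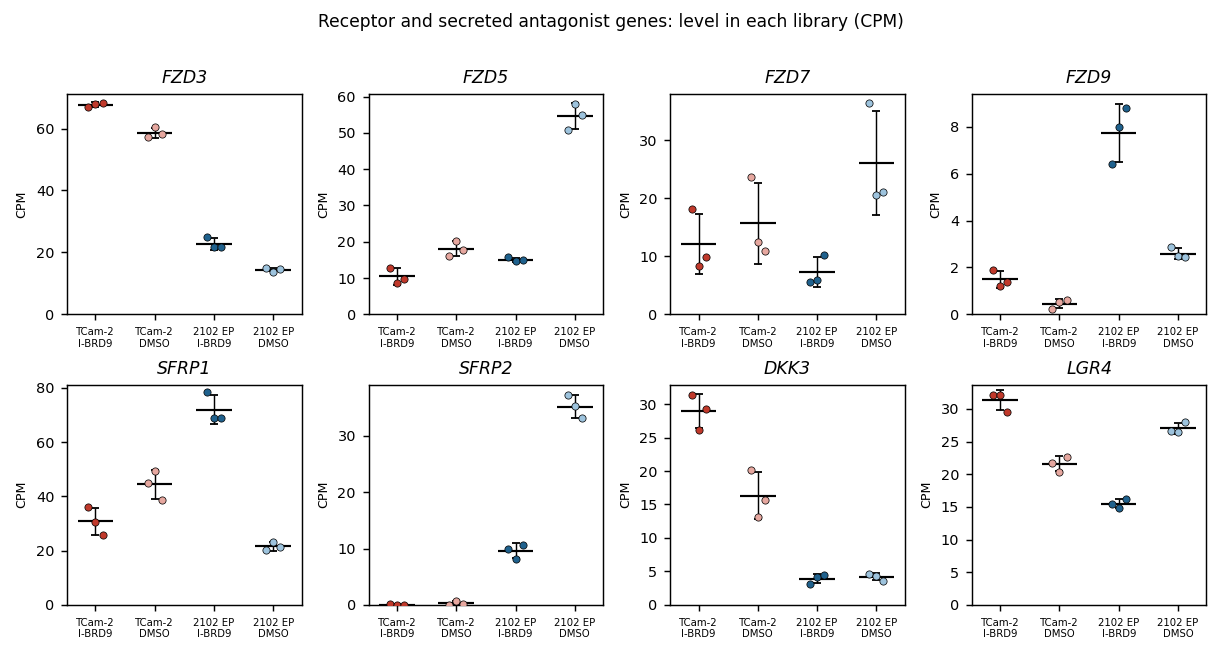
Level (CPM) of 4 frizzled genes, 3 secreted antagonist genes and LGR4 in each of the 12 libraries; points are libraries, horizontal lines means and bars 1 SD of 3 libraries, in the order TCam-2 I-BRD9, TCam-2 DMSO, 2102 EP I-BRD9 and 2102 EP DMSO. FZD5, FZD7, SFRP2 and LGR4 are lower and FZD3, FZD9 and SFRP1 higher with I-BRD9 in 2102 EP. In TCam-2 FZD5 and SFRP1 were called lower and FZD9, DKK3 and LGR4 higher.

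Secreted antagonists bind the ligands (SFRP family) or the LRP co-receptors (DKK family). SFRP1 rose in 2102 EP and fell in TCam-2, SFRP2 fell in 2102 EP, and DKK3 rose in TCam-2. SFRP1 had 35.9, 30.6 and 25.9 CPM with I-BRD9 and 45.1, 49.5 and 38.6 CPM with DMSO in TCam-2. In 2102 EP SFRP1 had 78.3, 68.8 and 68.9 CPM with I-BRD9 and 20.1, 23.2 and 21.3 CPM with DMSO. The groups were apart in both lines and in opposite order, with log2 fold changes of -0.53 ± 0.12 in TCam-2 (edgeR adjusted p = 0.00185) and 1.74 ± 0.12 in 2102 EP (edgeR adjusted p = 2.57e-10).

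SFRP2 had 9.95, 8.11 and 10.7 CPM with I-BRD9 and 37.2, 35.3 and 33.1 CPM with DMSO in 2102 EP, without overlap, and the log2 fold change was -1.88 ± 0.23 (edgeR adjusted p = 1.34e-06). In TCam-2 SFRP2 was at or near 0 in all 6 libraries. With I-BRD9, SFRP1 was thus higher and SFRP2 lower than with DMSO in the same 2102 EP libraries. DKK3, a DKK family member that is known for effects outside the pathway, had 31.3, 26.2 and 29.3 CPM with I-BRD9 and 20.1, 13.2 and 15.7 CPM with DMSO in TCam-2. All I-BRD9 libraries of TCam-2 were above its DMSO libraries for DKK3, with a log2 fold change of 0.83 ± 0.17 (edgeR adjusted p = 0.00048), and in 2102 EP the value was -0.08 ± 0.22 (edgeR adjusted p = 0.827).

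SFRP5 had no count in TCam-2, and in 2102 EP its log2 fold change of 0.26 ± 0.52 was not called (edgeR adjusted p = 0.733). DKK2 had 14 counts in TCam-2 with DMSO and none in TCam-2 with I-BRD9, where it was at least 4.85-fold lower relative to a floor of 3 counts summed over the group, and it had no count in 2102 EP. DKKL1 and NOTUM, a secreted enzyme that removes the lipid from WNT ligands, were too low to be tested, and NOTUM had at most 4 counts in a group. DKK1, under the member minimum, had 5 of its 7 counts in 2102 EP with I-BRD9.

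In the R-spondin arm, LGR4 is a receptor for R-spondins and RNF43 and ZNRF3 are ligases that remove frizzled receptors from the membrane. LGR4 (chr11:27365961-27472775, minus strand) had 32.2, 32.2 and 29.6 CPM with I-BRD9 and 21.8, 20.4 and 22.7 CPM with DMSO in TCam-2. In 2102 EP LGR4 had 15.4, 14.8 and 16.2 CPM with I-BRD9 and 26.7, 26.4 and 28 CPM with DMSO. Replicates lay close together, the groups were apart in both lines, and the order of the groups was opposite. The log2 fold changes were 0.54 ± 0.11 in TCam-2 (edgeR adjusted p = 0.000886) and -0.80 ± 0.12 in 2102 EP (edgeR adjusted p = 1.32e-05).

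RNF43 had 8.7, 7.57 and 9.74 CPM with I-BRD9 and 13.5, 12.5 and 9.06 CPM with DMSO in TCam-2, with overlap of the groups, and the log2 fold change of -0.43 ± 0.18 was not called (edgeR adjusted p = 0.0794). In 2102 EP RNF43 had 14.3, 15.9 and 17.7 CPM with I-BRD9 and 10.5, 11 and 8.56 CPM with DMSO, without overlap, and rose with a log2 fold change of 0.67 ± 0.18 (edgeR adjusted p = 0.00505). An exon of RNF43 overlaps SUPT4H1 on the same strand, a gene with 5864 to 7439 counts in each group, so that its count is uncertain. ZNRF3, whose counts were partly shared with another gene in 10 libraries, had 7.42, 6.73 and 11.4 CPM with I-BRD9 and 14, 9.76 and 12.7 CPM with DMSO in TCam-2. In 2102 EP ZNRF3 had 7.36, 8.51 and 4.35 CPM with I-BRD9 and 8.24, 9.43 and 8.31 CPM with DMSO. It was not called in either line, with log2 fold changes of -0.52 ± 0.23 in TCam-2 and -0.36 ± 0.24 in 2102 EP. RSPO1 and LGR6 were too low to be tested, with at most 16 and 13 counts in a group.

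Among the cytoplasmic proteins, the scaffold and feedback target AXIN2 fell in TCam-2, while the feedback inhibitors NKD1 and NKD2, which bind dishevelled, rose in 2102 EP. AXIN2 (chr17:65528563-65561647, minus strand) had 4.15, 4.2 and 3.02 CPM with I-BRD9 and 15.2, 15.2 and 14.9 CPM with DMSO in TCam-2. In 2102 EP AXIN2 had 13.8, 9.32 and 9.04 CPM with I-BRD9 and 14.8, 15.3 and 14.2 CPM with DMSO. In TCam-2 the libraries of the groups lay far apart, while in 2102 EP the I-BRD9 replicate 1 lay just under the DMSO libraries. The log2 fold changes were -1.99 ± 0.20 in TCam-2 (edgeR adjusted p = 6.02e-08) and -0.47 ± 0.18 in 2102 EP (edgeR adjusted p = 0.0422). The 2102 EP call was lost in 12 of 21 alternatives, with adjusted p-values of 0.0502 to 0.169, among them those lacking DMSO replicate 2 of TCam-2, any 1 DMSO library of 2102 EP, or the second or the third I-BRD9 library of 2102 EP.

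NKD1 had 4.15, 6.85 and 5.22 CPM with I-BRD9 and 6.26, 8.81 and 6 CPM with DMSO in TCam-2, and the log2 fold change of -0.39 ± 0.24 was not called (edgeR adjusted p = 0.234). In 2102 EP NKD1 had 13.9, 9.52 and 11.7 CPM with I-BRD9 and 5.61, 6.01 and 8.18 CPM with DMSO, a log2 fold change of 0.82 ± 0.23 (edgeR adjusted p = 0.00695). The groups were apart in 2102 EP and overlapped in TCam-2. NKD2 had 12.9, 16.8 and 15.1 CPM with I-BRD9 and 11.9, 10.2 and 10.7 CPM with DMSO in TCam-2, and the log2 fold change of 0.45 ± 0.20 was not called (edgeR adjusted p = 0.0922). NKD2 was called higher there with the 2 groups compared alone (edgeR adjusted p = 0.0324) and without I-BRD9 replicate 1 of 2102 EP (edgeR adjusted p = 0.0425). In 2102 EP NKD2 had 20.2, 10.8 and 12.5 CPM with I-BRD9 and 4.23, 3.89 and 4.09 CPM with DMSO, a log2 fold change of 1.82 ± 0.22 (edgeR adjusted p = 1.07e-06).

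CTNNB1 (chr3:41194741-41260096, plus strand), the gene of β-catenin, rose in TCam-2 with 354, 350 and 401 CPM with I-BRD9 and 301, 262 and 279 CPM with DMSO. In 2102 EP CTNNB1 had 186, 222 and 248 CPM with I-BRD9 and 269, 249 and 251 CPM with DMSO. All I-BRD9 libraries were above the DMSO libraries in TCam-2 and below them in 2102 EP. The log2 fold changes were 0.39 ± 0.09 in TCam-2 (edgeR adjusted p = 0.00197) and -0.23 ± 0.09 in 2102 EP (edgeR adjusted p = 0.0558). In 2102 EP CTNNB1 was called lower by limma voom (adjusted p = 0.0482) and without I-BRD9 replicate 3 of that line (edgeR adjusted p = 0.0115).

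Of the dishevelled genes, which pass the signal from the receptors, DVL2 rose in TCam-2 by 0.53 ± 0.12 (edgeR adjusted p = 0.00161) and DVL1 rose in 2102 EP by 0.38 ± 0.09 on the log2 scale (edgeR adjusted p = 0.00252). DVL3, APC and AXIN1 were not called in either line, with log2 fold changes of 0.10 ± 0.09, 0.16 ± 0.13 and -0.12 ± 0.12 in TCam-2 and -0.15 ± 0.10, -0.14 ± 0.14 and -0.03 ± 0.13 in 2102 EP.

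Among the nuclear factors, SP5 and TCF7L2 rose and TCF7L1 fell in 2102 EP, and TCF7L2 rose in TCam-2. The upstream sequence of SP5 is shown above with 3 motif matches. SP5 had 12.1, 11.6 and 16.5 CPM with I-BRD9 and 4, 4.95 and 6.14 CPM with DMSO in 2102 EP. The libraries did not overlap, and the log2 fold change was 1.42 ± 0.32 (edgeR adjusted p = 0.0012). In TCam-2 SP5 was near the limit of detection, with 0.0989, 0 and 0.812 CPM with I-BRD9 and 0.472, 0.531 and 0.367 CPM with DMSO. The log2 fold change there was -0.61 ± 0.72 (edgeR adjusted p = 0.567), and without I-BRD9 replicate 3, which held most of that group's counts, it was -2.79 (adjusted p = 0.0267). The difference between the lines was -2.03 ± 0.80 (edgeR adjusted p = 0.102), and -4.22 without that library (adjusted p = 0.00287).

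TCF7L1 (chr2:85133410-85310388, plus strand), a TCF factor known mainly as a repressor in pluripotent cells, had 213, 190 and 189 CPM with I-BRD9 and 176, 191 and 166 CPM with DMSO in TCam-2. In 2102 EP TCF7L1 had 67.9, 62.7 and 56 CPM with I-BRD9 and 142, 127 and 132 CPM with DMSO. The groups were far apart in 2102 EP and overlapped in TCam-2, with log2 fold changes of 0.15 ± 0.09 in TCam-2 (edgeR adjusted p = 0.183) and -1.11 ± 0.09 in 2102 EP (edgeR adjusted p = 1.98e-09).

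TCF7L2 rose slightly in both lines, with 0.34 ± 0.10 in TCam-2 (edgeR adjusted p = 0.0108) and 0.29 ± 0.10 in 2102 EP on the log2 scale (edgeR adjusted p = 0.027). The TCam-2 call was lost without its DMSO replicate 1 or I-BRD9 replicate 2 (adjusted p of 0.085 and 0.0613). The 2102 EP call was lost without its DMSO replicate 2 or 3 or I-BRD9 replicate 1 (adjusted p of 0.0839, 0.0641 and 0.13). TCF7, itself a target gene, had 9.29, 10.3 and 10.7 CPM with I-BRD9 and 8.62, 12.1 and 12.1 CPM with DMSO in TCam-2, and 32.5, 27.9 and 27.2 CPM with I-BRD9 and 37.4, 40.1 and 32.9 CPM with DMSO in 2102 EP. It was not called in either line, with log2 fold changes of -0.12 ± 0.16 in TCam-2 (edgeR adjusted p = 0.618) and -0.34 ± 0.14 in 2102 EP (edgeR adjusted p = 0.0581), although the 2102 EP groups did not overlap. An exon of TCF7 overlaps SKP1 on the other strand.

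LEF1 did not pass the filter. In 2102 EP LEF1 had 1.09, 1.5 and 3.01 CPM with I-BRD9 and 0.114, 0 and 0.384 CPM with DMSO, or 50 and 4 counts over the groups. In TCam-2 it had no count with I-BRD9 and 1 count with DMSO. When the filter was dropped, edgeR gave LEF1 a log2 fold change of 3.44 ± 0.88 in 2102 EP (adjusted p = 0.001), and DESeq2 gave 3.52 ± 1.19 (adjusted p = 0.0134).

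Of the feedback targets AXIN2, LEF1, TCF7, NKD1, SP5, RNF43, ZNRF3 and NOTUM, 6 were tested in each line. In TCam-2 AXIN2 fell and the other 5 tested genes were not called. RNF43 was called lower in TCam-2 without its DMSO replicate 3 (adjusted p = 0.0268). ZNRF3 was called lower there without I-BRD9 replicate 3 (adjusted p = 0.0234), as was SP5. In 2102 EP NKD1, SP5 and RNF43 rose, AXIN2 fell, with a call lost in 12 of 21 alternatives, and TCF7 and ZNRF3 were not called. TCF7 was called lower in 2102 EP in 5 of the 21 alternatives (adjusted p of 0.0264 to 0.0449). LEF1, which was not tested, was higher there when the filter was dropped.

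**Figure D4:**
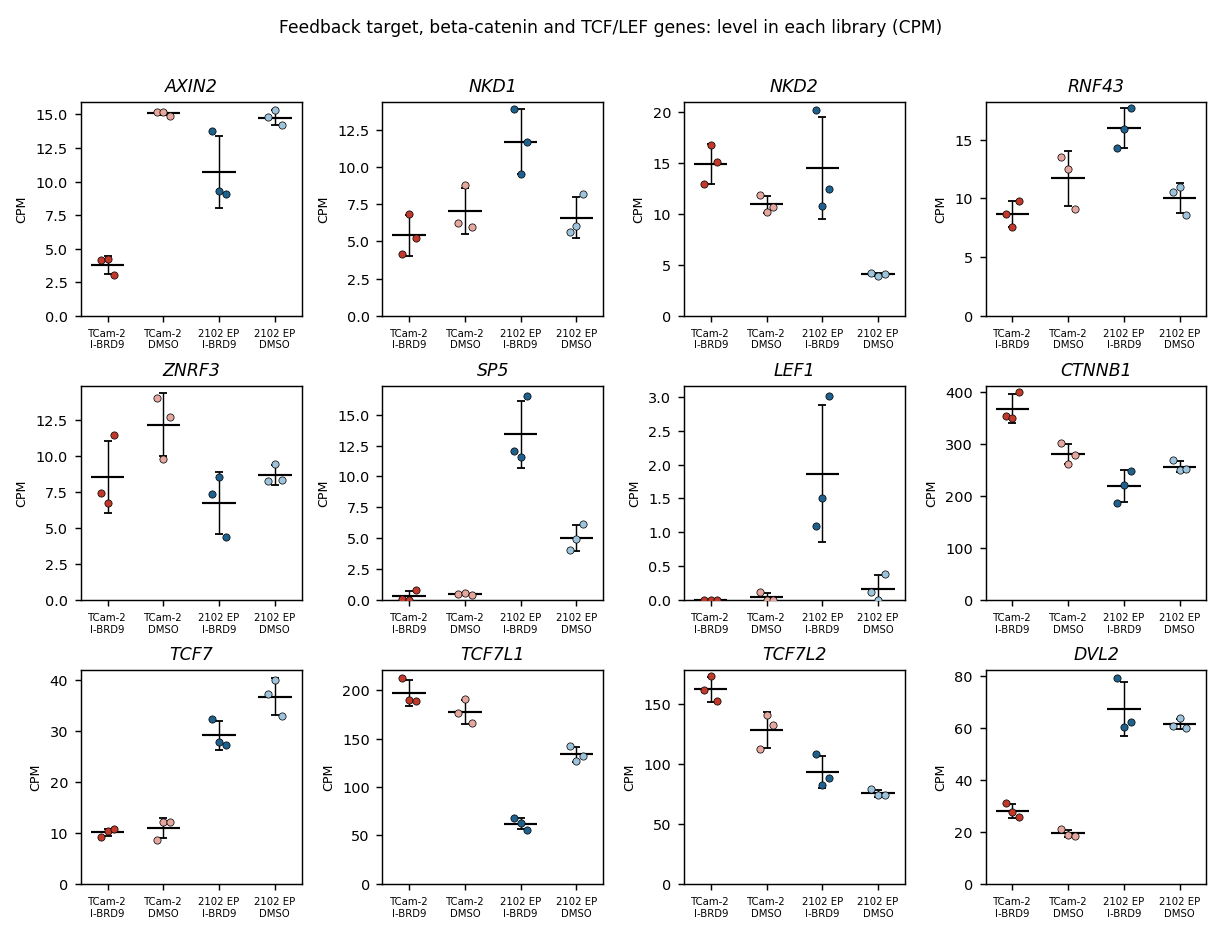
Level (CPM) of 12 feedback target, β-catenin, TCF/LEF and dishevelled genes in each of the 12 libraries; points are libraries, horizontal lines means and bars 1 SD of 3 libraries, in the order TCam-2 I-BRD9, TCam-2 DMSO, 2102 EP I-BRD9 and 2102 EP DMSO. AXIN2 stands at 3.02 to 4.2 CPM in TCam-2 with I-BRD9 against 14.9 to 15.2 CPM with DMSO, whereas NKD1, RNF43, SP5 and LEF1 have their highest mean in 2102 EP with I-BRD9.

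Whether the I-BRD9 effect differed between the lines was tested directly as the TCam-2 effect minus the 2102 EP effect. Of the 43 members 12 were called (27.9%), 5 with a positive and 7 with a negative difference, where 13.1% of all genes tested were called, 5.9% positive and 7.19% negative. The called members included 4 of 9 cytoplasmic proteins and 2 of 9 tested frizzled receptors.

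A negative difference was called for WLS (-3.04 ± 0.19, edgeR adjusted p = 9.48e-11), SFRP1 (-2.26 ± 0.17, edgeR adjusted p = 3.48e-09), AXIN2 (-1.52 ± 0.27, edgeR adjusted p = 0.000345) and NKD2 (-1.37 ± 0.30, edgeR adjusted p = 0.00289). The same sign was called for NKD1 (-1.21 ± 0.33, edgeR adjusted p = 0.0162), RNF43 (-1.10 ± 0.26, edgeR adjusted p = 0.00495) and FZD3 (-0.45 ± 0.14, edgeR adjusted p = 0.0374). For these genes the fold change in 2102 EP lay above that in TCam-2. A positive difference was called for LGR4 (1.34 ± 0.17, edgeR adjusted p = 4.5e-06), TCF7L1 (1.26 ± 0.12, edgeR adjusted p = 1.65e-07) and FZD5 (1.07 ± 0.20, edgeR adjusted p = 0.000704). It was also called for DKK3 (0.91 ± 0.28, edgeR adjusted p = 0.0327) and CTNNB1 (0.62 ± 0.13, edgeR adjusted p = 0.00193). The call of DKK3 was lost in 10 of the 20 alternatives that give this difference (adjusted p of 0.0506 to 0.0961), 8 of which leave out 1 library. These were DMSO replicate 2 or 3 or I-BRD9 replicate 1 or 3 of TCam-2, and DMSO replicate 1 or 2 or I-BRD9 replicate 1 or 2 of 2102 EP. The call of FZD3 was lost in 12 of these 20 (adjusted p of 0.0513 to 0.0936), 8 of which leave out 1 library. These were DMSO replicate 2 or 3 or any I-BRD9 library of TCam-2, and DMSO replicate 2 or 3 or I-BRD9 replicate 1 of 2102 EP. NKD1 lost its call without DMSO replicate 2 or I-BRD9 replicate 1 of TCam-2 (adjusted p of 0.0668 and 0.0543).

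**Figure D5:**
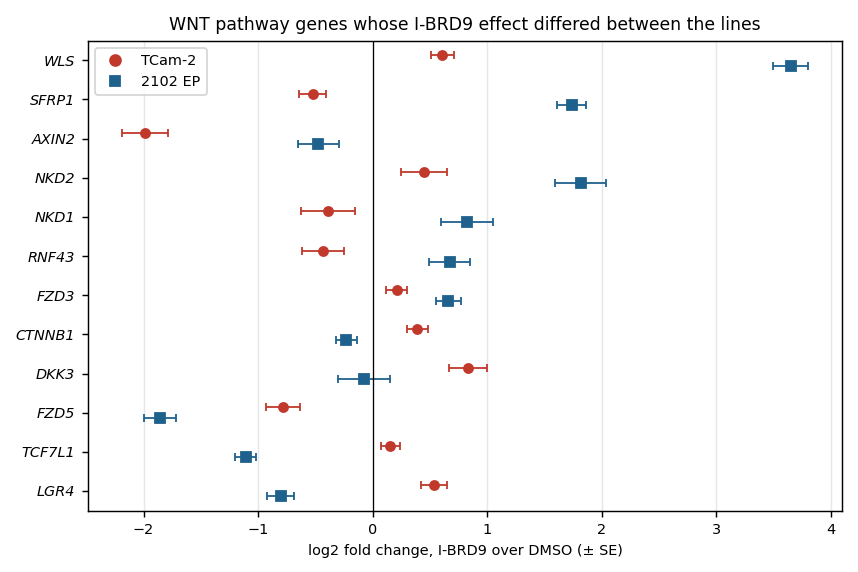
Log2 fold change, I-BRD9 over DMSO, of the 12 members whose effect differed between the lines, with TCam-2 as circles and 2102 EP as squares and bars of 1 standard error. Genes run from the most negative to the most positive difference, and WLS shows 0.61 in TCam-2 and 3.65 in 2102 EP, and LGR4 shows 0.54 and -0.80.

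The lines differed in most members before any I-BRD9. With DMSO, 20 of the 43 tested members were called higher and 15 lower in TCam-2 than in 2102 EP (81.4%), where 62.6% of all genes tested were called, 31.7% higher and 30.8% lower. All 10 tested ligands were called, and several passed the filter through 1 line only. WNT2 had 507 counts in TCam-2 and none in 2102 EP, which is at least 162-fold higher relative to a floor of 3 counts summed over the group. WNT6 (23.5 ± 2.48 CPM in TCam-2, 0.287 ± 0.203 in 2102 EP; SD, n = 3 each) and WNT9A (23.1 ± 5.94 and 7.99 ± 2.9) were higher in TCam-2. WNT3 (0.307 ± 0.0663 CPM in TCam-2, 35.5 ± 4.5 in 2102 EP), WNT5B (2.05 ± 0.591 and 36.7 ± 3.2) and WNT10B (0.965 ± 0.128 and 11.4 ± 0.784) were lower in TCam-2.

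For the export and receptor genes with DMSO, WLS was higher in TCam-2 by a log2 fold change of 4.96 ± 0.15 (edgeR adjusted p = 4.52e-18). FZD6, with 41.7, 42.9 and 34 CPM in TCam-2 and 2.86, 4.13 and 2.81 CPM in 2102 EP, was higher by 3.59 ± 0.17 (edgeR adjusted p = 1.87e-14), and FZD3 by 2.02 ± 0.10 on the log2 scale (edgeR adjusted p = 1.02e-13). DKK3 was higher in TCam-2 by 1.96 ± 0.20 (edgeR adjusted p = 1.06e-08). SFRP2, with 0, 0.743 and 0.122 CPM in TCam-2 and 37.2, 35.3 and 33.1 CPM in 2102 EP, had a log2 fold change of -6.78 ± 0.36 (edgeR adjusted p = 8.23e-13), and without DMSO replicate 2 of TCam-2 the value was -8.88. AXIN2, CTNNB1, NKD1, RNF43, APC, FZD7, FZD8 and ZNRF3 were not called with DMSO. Between AXIN2 levels the log2 difference was 0.03 ± 0.17 (edgeR adjusted p = 0.88).

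With I-BRD9 in both lines, 19 members were called higher and 18 lower in TCam-2 than in 2102 EP (86.0%), where 62.2% of all genes tested were called, 31.1% in each direction. AXIN2 was then lower in TCam-2 than in 2102 EP, with a log2 fold change of -1.48 ± 0.20 (edgeR adjusted p = 1.25e-06). So were NKD1, with -1.12 ± 0.23 (edgeR adjusted p = 0.000246), and RNF43, with -0.88 ± 0.18 (edgeR adjusted p = 0.000205). SFRP1 had a log2 fold change of -1.22 ± 0.12 with I-BRD9 (edgeR adjusted p = 8.43e-09), against 1.04 ± 0.13 with DMSO (edgeR adjusted p = 2.06e-07). LGR4 had 1.02 ± 0.12 with I-BRD9 (edgeR adjusted p = 1.06e-07), against -0.32 ± 0.12 with DMSO (edgeR adjusted p = 0.0194). The order of the lines was thus opposite with and without I-BRD9 for SFRP1 and LGR4. The LGR4 call with DMSO was lost without DMSO replicate 3 of 2102 EP or DMSO replicate 2 of TCam-2 (adjusted p of 0.0643 and 0.079). It was also lost with all libraries when the filter on low counts was dropped (edgeR adjusted p = 0.0604).

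Genes of the pathway outside the name rule were described from 6 lists, which give counts and medians and no test of the list, to be read against the 31.8% of genes called in TCam-2 and 36.8% in 2102 EP. Of 9 tested co-receptors and alternative receptors, 2 were called higher and 2 lower in TCam-2, and in 2102 EP 1 was called, which was lower. Their median log2 fold change was -0.02 in TCam-2 and -0.04 in 2102 EP. Of 10 tested secreted or membrane modulators, 1 was higher and 3 lower in TCam-2 (median -0.05), and 1 higher and 2 lower in 2102 EP (median -0.24). The destruction complex and its regulators gave 4 higher and 5 lower of 25 in TCam-2 (median -0.06), and 5 higher and 8 lower in 2102 EP (median 0.00). Nuclear cofactors gave 6 higher and 5 lower of 24 in TCam-2 (median 0.10), and 7 higher and 9 lower in 2102 EP (median -0.05). The planar polarity and calcium arm gave 5 higher and 4 lower of 31 in TCam-2 (median 0.01), and 8 higher and 7 lower in 2102 EP (median 0.09). Of 25 tested textbook target genes, 6 were higher and 10 lower in TCam-2 (median -0.03), and 10 were higher and 6 lower in 2102 EP (median 0.31).

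SOSTDC1, a secreted antagonist of WNT and BMP signalling, had 1.09, 0.601 and 1.86 CPM with I-BRD9 and 16.6, 13.4 and 16.2 CPM with DMSO in TCam-2, without overlap. Its log2 fold change there was -3.69 ± 0.33 (edgeR adjusted p = 1.23e-08). SOSTDC1 was also called lower in 2102 EP, where it was low, with 1 count over the I-BRD9 group and 10 over the DMSO group. The nuclear cofactor TLE5 fell in both lines, by log2 fold changes of -1.08 ± 0.12 in TCam-2 (edgeR adjusted p = 1.67e-07) and -1.03 ± 0.12 in 2102 EP (edgeR adjusted p = 5.22e-07). TLE1, a co-repressor of TCF factors, had -0.04 ± 0.11 in TCam-2 (edgeR adjusted p = 0.824) and fell in 2102 EP with -1.12 ± 0.11 (edgeR adjusted p = 3.37e-08). Of the other TLE genes, TLE3 and TLE4 were called higher in both lines, and TLE2 was called lower in 2102 EP. PRICKLE1, a planar polarity protein, fell in TCam-2 with -1.27 ± 0.09 (edgeR adjusted p = 2.38e-10) and rose in 2102 EP with 0.35 ± 0.08 (edgeR adjusted p = 0.00239). Among textbook targets ID2, an inhibitor of helix-loop-helix factors, rose in both lines, and VCAN, a matrix proteoglycan, fell in both. ID2 had 1.71 ± 0.08 in TCam-2 (edgeR adjusted p = 1.49e-13) and 2.03 ± 0.09 in 2102 EP (edgeR adjusted p = 3.94e-14), and VCAN had -1.49 ± 0.14 (edgeR adjusted p = 2.06e-08) and -1.79 ± 0.10 (edgeR adjusted p = 7.52e-12). The homeobox gene MSX1 rose in 2102 EP, where it had 11.3, 8.01 and 12.8 CPM with I-BRD9 and 0.915, 0.236 and 0.511 CPM with DMSO, and its log2 fold change was -1.44 ± 0.46 in TCam-2 (edgeR adjusted p = 0.0188) and 4.23 ± 0.39 in 2102 EP (edgeR adjusted p = 1.57e-08).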

How the data were processed

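Expression was analysed in 12 libraries of 2 cell lines, 3 per group. The authors deposited 1 table of estimated counts per gene for all libraries. Per the submitters' processing notes, Salmon 1.9.0, STAR 2.7.11b, Trim Galore, DESeq2 and R 4.2.0 were used and the genome build was GRCh38. Neither the order of the steps nor the annotation or strand setting is stated in these sources. Fractional values, more than 0.01 away from a whole number, were read as reads shared between genes, and 7 members had them in at least 1 library.

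Estimated counts were rounded. edgeR 4.0.16 in R 4.3.3 was run with TMM scaling, filterByExpr by the 4 groups and a robust quasi-likelihood model of 4 group means (glmQLFit, glmQLFTest) with 8 residual degrees of freedom. The common biological coefficient of variation was 0.127. Benjamini-Hochberg adjustment covered the 15614 genes tested. The comparisons were the effect of I-BRD9 over DMSO within each line, the difference of these effects, and TCam-2 over 2102 EP under each treatment. Where a group had 1 to 3 counts, a ratio with a 95% exact counting interval was given, and where it had none, a bound relative to 3 counts summed over the group. Intervals and floors cover counting error only. The script was tested on simulated data. Replicates of a group differed by more than sampling noise, with chi-square values of 5.14 to 13.4 for each degree of freedom.

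Members and lists were chosen with earlier results of these data known. The rule for giving values by library took 28 genes. It took members changed at least 2-fold by I-BRD9 with at least 5 CPM in the higher group. It also took those called for the difference of the effects with at least 5 CPM. Up to 10 with the largest line differences under DMSO and at least 10 CPM were added, and the feedback targets at any level. Of these, LGR5 and DKK1 were under the member minimum. LGR5, DKK1, NOTUM and WNT10B are given without values by library, and some others with them in 1 line or treatment only. Further members given by library, such as WNT4, PORCN or LRP6, were chosen after their values were seen. From each list of other pathway genes up to 4 per line qualified, and some of these are named. Gene coordinates are those of GENCODE release 29 on GRCh38, in which 16 members have an exon that overlaps another gene.

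The alternatives were DESeq2 size factors, upper-quartile scaling, no filter, at least 10 counts in 3 libraries, DESeq2 1.42.0, limma 3.58.1 (voom), blocks by replicate number and by library code, the 2 groups compared alone, and each library left out in turn.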

Additional observations from a re-analysis of the deposited data

Results flagged for a closer look

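For 12 members the I-BRD9 effect differed between the lines by the edgeR test of the difference itself, given here as TCam-2 minus 2102 EP on the log2 scale. The difference was -3.04 for WLS, -2.26 for SFRP1, -1.52 for AXIN2, -1.37 for NKD2, -1.21 for NKD1, -1.10 for RNF43 and -0.45 for FZD3. It was 1.34 for LGR4, 1.26 for TCF7L1, 1.07 for FZD5, 0.91 for DKK3 and 0.62 for CTNNB1. SFRP1 and LGR4 were called in opposite directions in the lines.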

How the results depend on the processing

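The counts of members called higher and lower stayed within 1.5 times the reported count in each alternative that gave one (the 2 groups alone give no value for the difference of the effects), and no called member changed direction. Over single members and alternatives, 4337 results kept their side of the threshold, 65 lost a call and 55 gained one. Those gained included FZD3 (upper-quartile scaling, edgeR adjusted p = 0.0497) and WNT4 (limma voom, adjusted p = 0.0485) in TCam-2. FZD6 gained one in 2102 EP without its DMSO replicate 2 (edgeR adjusted p = 0.0425). Leaving out 1 library at a time gave 8 to 11 members higher and 5 to 7 lower in TCam-2, 12 to 14 higher and 7 to 10 lower in 2102 EP, 4 to 5 positive and 5 to 7 negative differences of the effects, 20 to 22 higher and 14 to 16 lower in TCam-2 than in 2102 EP under DMSO, and 17 to 20 higher and 18 to 19 lower under I-BRD9. Same-numbered replicates did not deviate together in every pair: the correlations of their deviations across genes were 0.16, 0.034 and 0.127 in TCam-2 and -0.119, 0.096 and -0.079 in 2102 EP, and not every library matched its own number best. With a replicate block, 10 members were higher and 5 lower in TCam-2, 12 and 9 in 2102 EP, 7 and 6 for the difference of the effects, 20 and 16 for TCam-2 over 2102 EP under DMSO, and 19 and 18 under I-BRD9. The block added calls of FZD7 and WNT9A for the difference, of WNT9A in TCam-2 (adjusted p = 0.0111) and in 2102 EP (0.0467), and of FZD7 between the lines under DMSO (0.0106) and under I-BRD9 (0.043). It ended those of FZD3 for the difference (adjusted p = 0.0577), of AXIN2 in 2102 EP (0.052) and of WNT4 between the lines under I-BRD9 (0.0565). The library codes cross replicates 1 and 2 of TCam-2 DMSO, and a block by these codes gave 10 and 6 in TCam-2 and 12 and 9 in 2102 EP. Depth limits the 14 untested members, none of which exceeded 50 counts in a group, and the fold changes of genes with few counts.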

Other observations

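Several members too low to be tested had uneven counts over the groups, given here as sums over 3 libraries and chosen after their values were seen. WNT7A, a ligand known from limb and nervous system development, had 13 counts with I-BRD9 and 36 with DMSO in TCam-2, and 4 and 1 in 2102 EP. WNT3A, the neighbour of WNT9A on chromosome 1 at a distance of 59152 bases, had 11 counts with I-BRD9 and 1 with DMSO in TCam-2, and 12 and 9 in 2102 EP. WNT11, known for signalling outside β-catenin, had 22 counts with I-BRD9 and 9 with DMSO in TCam-2, and 15 and 4 in 2102 EP. The receptor gene FZD1 had 12 counts with I-BRD9 and 2 with DMSO in TCam-2, a ratio of 5.78 (95% counting interval 1.29 to 53.2), and 15 and 7 in 2102 EP. RSPO1, a ligand of LGR receptors, had 6 counts with I-BRD9 and none with DMSO in TCam-2, and 16 and 12 in 2102 EP.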
